A study of Mus musculus with 8 samples.

Results

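The genes described here are Bmf and 9 other members of the BCL2 family of cell death regulators, Bcl2, Bcl2l1, Bcl2l11, Mcl1, Bax, Bak1, Bid, Bbc3 and Pmaip1. They were chosen by name, and Bmf was chosen from this same comparison, in which it had been seen to be higher in mutant tissue. Every probe whose gene name in the scanner files equals 1 of the 10 symbols was taken, which gave 10 of the 27827 gene names on the array, measured by 20 of its 41174 probes. All 10 genes had at least 1 probe, and 16 of the 20 probes passed the filter on dim probes and were tested. The tissue was the pSHF (posterior second heart field), a source of atrial septum cells that lies behind the heart tube, dissected from mouse embryos at E9.5. There were 4 RNA pools from embryos of the genotype Tbx5-/+, in which 1 allele of the T-box factor gene Tbx5 is mutated, and 4 pools from wild-type embryos. The Tbx5-/+ line was kept on a mixed background, mothers of both groups were hormone-treated before mating to enlarge the litters, and the number of embryos in a pool was not given in the sources used here. Each pool went to 1 Agilent whole mouse genome array of 60-base probes. Pools carry the embryo numbers 1, 5, 6 and 7 in both groups, with numbers 1 and 5 on the array labelled 1 and numbers 6 and 7 on the array labelled 2.

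BCL2 family proteins decide whether the outer membrane of the mitochondrion stays intact. The anti-apoptotic members Bcl2, Bcl2l1 (Bcl-xL) and Mcl1 hold the effectors Bax and Bak1 in check, and the BH3-only members Bmf, Bcl2l11 (Bim), Bid, Bbc3 (Puma) and Pmaip1 (Noxa) bind them to release or activate the effectors, which open the membrane to cytochrome c. In the embryo, cell death shapes the heart and its neighbouring tissues, and BH3-only genes are switched on by different signals, such as loss of attachment for Bmf or p53 for Bbc3 and Pmaip1.

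Several facts of the whole series touch the values below. The share of spots well above background was 45.0% to 52.8% in Tbx5-/+ and 50.9% to 63.6% in wild-type. Values are log2 intensities after variance stabilization (VSN), and a difference is always Tbx5-/+ minus wild-type. Over the 20028 probes tested the median difference was -0.19 with VSN, 0.13 once each array was centred on its median and 0.09 with each array set to its 75th percentile. Each member is therefore also given relative to that median, and these relative differences are named as such. Of the 2 Tbx5 probes, A_52_P523712 averaged 9.13 ± 0.46 on the Tbx5-/+ arrays against 11.25 ± 0.55 on the wild-type arrays (SD, n = 4), without overlap, with a limma adjusted p of 0.0918, and A_51_P469338 overlapped (6.99 ± 0.66 and 7.14 ± 0.31). All 9 pSHF markers examined were measured above background. At an unadjusted p under 0.05, 5 were lower and 0 higher, where the shares of all probes were 18.5% and 3.36%. The pSHF list, which includes Tbx5 itself, had a median difference of -1.04, the furthest from 0 of the marker lists. Of the markers of other tissues, those of heart muscle (6 of 6 tested), foregut endoderm (6 of 6), endothelium (6 of 6) and primitive erythrocytes (4 of 5) were also present, liver bud markers reached 2 of 4, neural tube markers 3 of 5 and macrophage markers 1 of 5. At the same unadjusted p, 3 of the 6 endothelial markers were lower (median difference of the list -0.65) and 1 of the 6 foregut markers (-0.35). In the remaining lists of other tissues 0 markers passed. Their medians were 0.23 for heart muscle, 0.27 for erythrocytes, -0.73 for liver bud, 0.52 for neural tube and -0.47 for macrophages. The part of these shifts in the results below was not tested. The summed level of each of these lists, on the centred log2 scale, overlapped between the groups. Its range was 8.28 to 9.67 in Tbx5-/+ and 8.19 to 8.95 in wild-type for heart muscle. For erythrocytes it was 6.71 to 9.19 and 6.44 to 8.32, and for liver bud 2.52 to 7.36 and 3.93 to 6.39. For the pSHF list it was 4.28 to 6.66 in Tbx5-/+ and 5.29 to 5.80 in wild-type. Sox1, a neural tube marker, and Itgam, a macrophage marker, were not well above background on any array. In the leading component of the variation between arrays (56.9% of the variance) Tbx5-/+ 1 scored -0.26, among the wild-type arrays (-0.37 to -0.07), whereas Tbx5-/+ 5, 6 and 7 scored 0.18 to 0.79. The median gap between the 3′ and the 5′ probe of 2859 genes, a sign of RNA or amplification quality, was -0.19, 0.14, 0.32 and 0.20 in Tbx5-/+ 1, 5, 6 and 7 and -0.23, -0.09, -0.02 and -0.12 in the wild-type arrays of the same numbers.

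Bmf encodes a BH3-only protein that is kept on myosin V motors through a dynein light chain until it is set free. The array carries 3 Bmf probes, all on the minus strand of chromosome 2 (mm9), at chr2:118354519-118354578 (A_52_P384394), chr2:118356977-118357036 (A_52_P78830) and chr2:118358312-118358371 (A_51_P482239). All 3 are annotated on the same transcript, and their exon positions were not analysed here. The first 30 of the 60 bases of each are shown because the probe nearest the 3′ end carries the values below and the others were dim on most or several arrays.
A_52_P384394: ttttttggttctttatatgtatacatgtgt
A_52_P78830: acaggattattcaaggactttggaggagaa
A_51_P482239: tggtggcaggtcttcctcttccttcaaaac
A_52_P384394 is rich in A and T, with a GC content of 31.7%, where the 5th percentile of the probes tested is 35%. All 8 arrays measured it well above background. For A_52_P78830 that held on 1 array of the Tbx5-/+ group and 3 of the wild-type group, and for A_51_P482239 on 0 and 1. Neither of them was tested. Their VSN values overlapped, with means of 6.15 ± 0.44 and 6.15 ± 0.39 (SD, n = 4) for A_52_P78830 and 6.28 ± 0.65 and 5.70 ± 0.19 for A_51_P482239.

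On A_52_P384394 the VSN value of Bmf was 12.50, 12.48, 13.17 and 12.78 in Tbx5-/+ 1, 5, 6 and 7 and 12.02, 11.64, 12.06 and 11.57 in the wild-type pools of the same numbers. All 4 Tbx5-/+ values lay above all 4 wild-type values, and Tbx5-/+ 6 was the highest. The means were 12.73 ± 0.32 and 11.82 ± 0.25 (SD, n = 4), a difference of 0.91 (SE 0.22), which is 1.88-fold. Relative to the median of all probes the difference was 1.10. No test is given, because the gene was chosen for this difference, which stood at the 99.1 percentile of the differences of all probes tested. It was 0.66 within array label 1 and 1.16 within array label 2. Within the embryo numbers it was 0.48 for number 1, 0.85 for number 5, 1.11 for number 6 and 1.21 for number 7, so that each Tbx5-/+ pool lay above its own wild-type pool. In tissue RNA, more cells that express a gene and more RNA of it per cell cannot be told apart.

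The separation of the groups for Bmf depended on the scaling between arrays. Before any scaling, the background-subtracted signal of A_52_P384394 was 7665, 4281, 4542 and 4778 in Tbx5-/+ 1, 5, 6 and 7 and 5899, 4299, 5144 and 3934 in wild-type, and the groups overlapped. The mean log2 signals were 12.33 ± 0.38 and 12.22 ± 0.26 (SD, n = 4), a difference of 0.12. On the same unscaled values the median difference of all probes tested was -0.94, so Bmf was higher by 1.06 relative to the bulk of the probes. After scaling to the 75th percentile the means were 3.12 ± 0.48 and 1.85 ± 0.33, after quantile normalization 12.77 ± 0.30 and 11.77 ± 0.30, and after centring 3.04 ± 0.46 and 1.81 ± 0.30, without overlap on any of these scales. Relative to the median of all probes the difference stayed between 0.85 and 1.37 over the 22 alternatives run. All of them use the arrays from which Bmf was chosen, and centring and the blocks leave this value unchanged by construction. The lowest value, 0.85, was reached with the 3′ to 5′ gap of each array as a covariate. Among fits that left out 1 array the lowest was 0.92 (without Tbx5-/+ 6) and the highest 1.23 (without Tbx5-/+ 5).

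**Figure D1:**
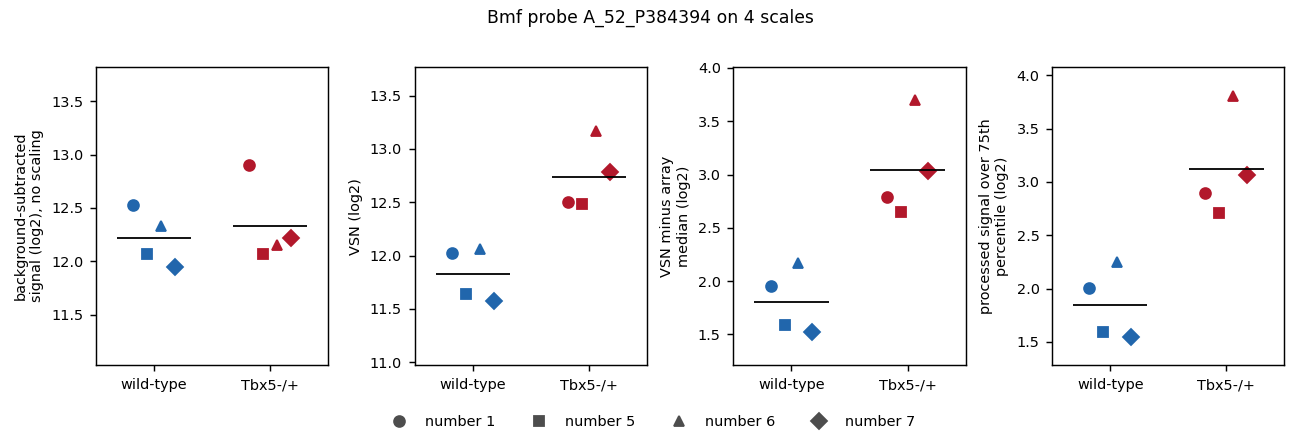
Bmf probe A_52_P384394 on each of the 8 arrays, in log2 units, before scaling and on 3 scaled versions. Symbols give the embryo number, colours the group and lines the group mean. The groups overlap without scaling (difference 0.12) and lie apart under VSN (0.91), centring (1.23) and the 75th percentile (1.27).

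The other BH3-only genes did not share a common direction in the reported fit. With the 3′ to 5′ gap as a covariate all their tested probes lay above the median of all probes, by 0.09 to 0.78. Pmaip1, which antagonizes Mcl1, read 8.29, 9.42, 9.58 and 9.04 in Tbx5-/+ 1, 5, 6 and 7 and 8.29, 8.19, 8.04 and 7.51 in wild-type. Tbx5-/+ 5, 6 and 7 lay above all 4 wild-type pools, and Tbx5-/+ 1 was level with wild-type 1. The means were 9.08 ± 0.58 and 8.01 ± 0.35 (SD, n = 4), a difference of 1.07 (SE 0.31, 2.1-fold), and 1.26 relative to the median. It stood at the 99.5 percentile of all probes and was larger than that of Bmf, but with an unadjusted p of 0.00583 and an adjusted p of 0.135 (limma) it did not pass. With the embryo number as a replicate block, which compares the pools of each number with each other, Pmaip1 rose with an adjusted p of 0.0487, and without Tbx5-/+ 1 it rose with an adjusted p of 0.013. Over all 22 alternatives its adjusted p ran from 0.000921 to 0.413. After centring the groups no longer overlapped (-0.61 ± 0.64 and -2.00 ± 0.36). Before scaling they overlapped (8.69 ± 0.22 and 8.35 ± 0.41, a difference of 0.33). With the 3′ to 5′ gap as a covariate the relative difference of Pmaip1 went from 1.26 to 0.78.

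Bbc3, a p53 target that binds every anti-apoptotic member, read 13.03, 13.06, 13.44 and 12.94 in Tbx5-/+ and 12.66, 12.52, 12.73 and 12.76 in wild-type, in the same order of numbers. All 4 Tbx5-/+ values lay above the wild-type values. The difference was 0.45 (SE 0.18), from means of 13.12 ± 0.22 and 12.67 ± 0.11 (SD, n = 4), and 0.64 relative to the median. The unadjusted p was 0.0342 and the adjusted p 0.209, and over the 20 alternatives that kept the probe the adjusted p ran from 0.0622 to 0.481. Before scaling, the direction was the opposite, with 12.72 ± 0.49 in Tbx5-/+ and 13.07 ± 0.10 in wild-type, and the groups overlapped. Relative to the other probes of the array Bbc3 was higher in Tbx5-/+ under all 20 of these alternatives, by 0.41 to 0.74.

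Bcl2l11, the BH3-only protein that like Bmf can be held on a dynein light chain, was represented by 3 probes. A_52_P158527 read 11.69, 11.59, 10.53 and 11.50 in Tbx5-/+ and 11.62, 11.78, 11.58 and 12.01 in wild-type. Tbx5-/+ 6 stood below all others, Tbx5-/+ 7 lay just below the wild-type arrays, and Tbx5-/+ 1 and 5 lay among them. The difference was -0.42 with a 95% confidence interval of -1.03 to 0.18 and an adjusted p of 0.35. Relative to the median it was -0.23, and it went to -0.0041 without Tbx5-/+ 6. A_51_P484880, whose mm9 span is longer than the probe, read 7.08 ± 0.11 and 6.96 ± 0.18 (SD, n = 4). The difference was 0.12 with an interval of -0.27 to 0.52, and 0.32 relative to the median. A_52_P348214, well above background on 1 wild-type array and on 0 of the others, was not tested. Bid, which links death receptors to the mitochondrion after cleavage, read 9.86, 9.20, 8.66 and 9.15 in Tbx5-/+ and 10.27, 9.75, 9.19 and 9.55 in wild-type. The groups overlapped, but each Tbx5-/+ pool lay below its own wild-type pool, by 0.40 to 0.55. The difference of Bid was -0.47 with an interval of -1.15 to 0.20 and an adjusted p of 0.35. Relative to the median it was -0.28, and it ran from -0.53 (without Tbx5-/+ 1) to -0.09 (without wild-type 1) on leaving out 1 array. With the 3′ to 5′ gap as a covariate it turned to 0.29.

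Among the anti-apoptotic genes, Bcl2 was the one whose probes disagreed. Bcl2 is the founding member of the family and protects cells by holding Bax, Bak1 and BH3-only proteins. It has 3 probes, A_52_P534870, A_52_P438280 and A_51_P380013, and the files annotate each on a different transcript record. A_52_P534870 (chr1:108434793-108434852) and A_52_P438280 (chr1:108607310-108607369) lie on the minus strand of chromosome 1 (mm9), the former 172517 bases downstream of the latter. The first 30 bases of both are shown because they point different ways.
A_52_P534870: catataatggctctttgtttgtgttgttag
A_52_P438280: ggagagaagctattttgtaagatgtttagt
The 3′ probe A_52_P534870 read 11.05, 12.35, 12.84 and 12.54 in Tbx5-/+ 1, 5, 6 and 7 and 11.15, 11.72, 11.78 and 11.59 in wild-type. Tbx5-/+ 5, 6 and 7 were above every wild-type array, and Tbx5-/+ 1 was the lowest of all 8. The difference was 0.63 with a 95% confidence interval of -0.18 to 1.44 and an adjusted p of 0.306.

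A_52_P438280 went the other way, with 7.07, 7.24, 7.09 and 7.61 in Tbx5-/+ and 7.77, 8.29, 8.43 and 8.65 in wild-type. All 4 Tbx5-/+ values were below the wild-type values, before scaling as well as under VSN, and the centred values overlapped. Before scaling most probes were lower, with a median difference of -0.94 over all probes tested. At an unadjusted p under 0.05, 13327 of the 20028 were then lower and 4 higher (limma). The VSN means of A_52_P438280 were 7.25 ± 0.25 and 8.29 ± 0.38 (SD, n = 4), a difference of -1.03 (SE 0.24, 2.04-fold). Its unadjusted p of 0.00144 was the smallest among the 15 probes of the 9 genes, and its adjusted p was 0.0961 (limma). The signal fell with the replicate block (adjusted p 0.0334), and over 22 alternatives the adjusted p ran from 0.00124 to 0.353. Relative to the median the difference was -0.84 and stayed between -1.15 and -0.58 over these alternatives. A_51_P380013 read 10.26, 9.68, 9.11 and 9.57 in Tbx5-/+ and 10.19, 10.33, 10.29 and 10.62 in wild-type. Tbx5-/+ 5, 6 and 7 were below all wild-type arrays and Tbx5-/+ 1 was level with wild-type 1. The difference was -0.70 (SE 0.25) with an adjusted p of 0.191.

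The distance between Bcl2 probes on the same array is free of any scaling by a constant. A_52_P534870 exceeded A_52_P438280 by 3.98, 5.11, 5.75 and 4.93 in Tbx5-/+ 1, 5, 6 and 7 and by 3.38, 3.43, 3.35 and 2.94 in wild-type. This gap was wider on all 4 Tbx5-/+ arrays than on any wild-type array, by 1.66 on average. The gap to A_51_P380013 was 2.54 in Tbx5-/+ and 1.20 in wild-type and overlapped through Tbx5-/+ 1 (0.78). The probes of Bcl2 thus changed unequally, and a single direction for the gene cannot be given from them. The arrays with the widest gap, Tbx5-/+ 5, 6 and 7, are those with the largest 3′ to 5′ gap over 2859 genes, and with that gap as a covariate the relative difference of A_52_P534870 went from 0.82 to -0.04, that of A_51_P380013 from -0.51 to -0.14 and that of A_52_P438280 from -0.84 to -1.06. The part of RNA quality in the Bcl2 gap was not tested further, nor was that of the different transcript records of its probes. In the other genes with several tested probes the gaps of the groups overlapped. The 3′ probe minus the more 5′ probe differed between the groups by 0.03 in Bcl2l1, 0.12 in Mcl1, -0.15 in Bak1 and -0.55 in Bcl2l11.

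Bcl2l1 was measured on A_52_P148861, which read 9.60, 9.15, 8.39 and 8.73 in Tbx5-/+ and 9.59, 9.58, 9.11 and 9.41 in wild-type. Number 1 was level between the genotypes (0.01), and numbers 5, 6 and 7 were lower in Tbx5-/+ by 0.43 to 0.73. The difference was -0.45 with a 95% confidence interval of -1.06 to 0.15 and an adjusted p of 0.32. A_52_P510877 was dim on 2 of the 4 Tbx5-/+ arrays and differed by -0.48 (interval -1.35 to 0.39). The third probe, A_51_P299454, reached that level on 0 of the Tbx5-/+ and 3 of the wild-type arrays and was not tested. Mcl1, a short-lived protein needed for survival of many embryonic cells, read 12.45 ± 0.24 and 12.78 ± 0.23 (SD, n = 4) on A_52_P93933 and 14.36 ± 0.19 and 14.59 ± 0.24 on A_51_P238786. Both probes were lower within each of the 4 embryo numbers, by 0.28 to 0.37 and by 0.12 to 0.46. The differences of -0.34 and -0.22 did not pass (adjusted p 0.32 and 0.489), and relative to the median they were -0.15 and -0.03, so Mcl1 lay close to the bulk of the probes. The latter turned to 0.05 after scaling to the 75th percentile.

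The effectors differed from each other. Bax read 12.30, 11.83, 10.36 and 11.52 in Tbx5-/+ 1, 5, 6 and 7 and 12.44, 12.59, 11.91 and 12.43 in wild-type. Tbx5-/+ 6 was by far the lowest array, Tbx5-/+ 1 was close to wild-type 1, and the groups overlapped. The means were 11.50 ± 0.83 and 12.34 ± 0.30 (SD, n = 4), a difference of -0.84 (SE 0.38), with an unadjusted p of 0.0503 and an adjusted p of 0.229. The relative difference of -0.65 went to -0.31 without Tbx5-/+ 6, to -0.95 without Tbx5-/+ 1 and to 0.04 with the 3′ to 5′ gap as a covariate. Bak1, which acts beside Bax on the same membrane, read 12.41 ± 0.27 and 12.49 ± 0.26 on A_51_P395011 and 7.76 ± 0.27 and 7.68 ± 0.20 on A_52_P225207 (SD, n = 4). Its differences were -0.08 with an interval of -0.55 to 0.40 and 0.08 with an interval of -0.38 to 0.53. Relative to the median they were 0.11 and 0.27.

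**Figure D2:**
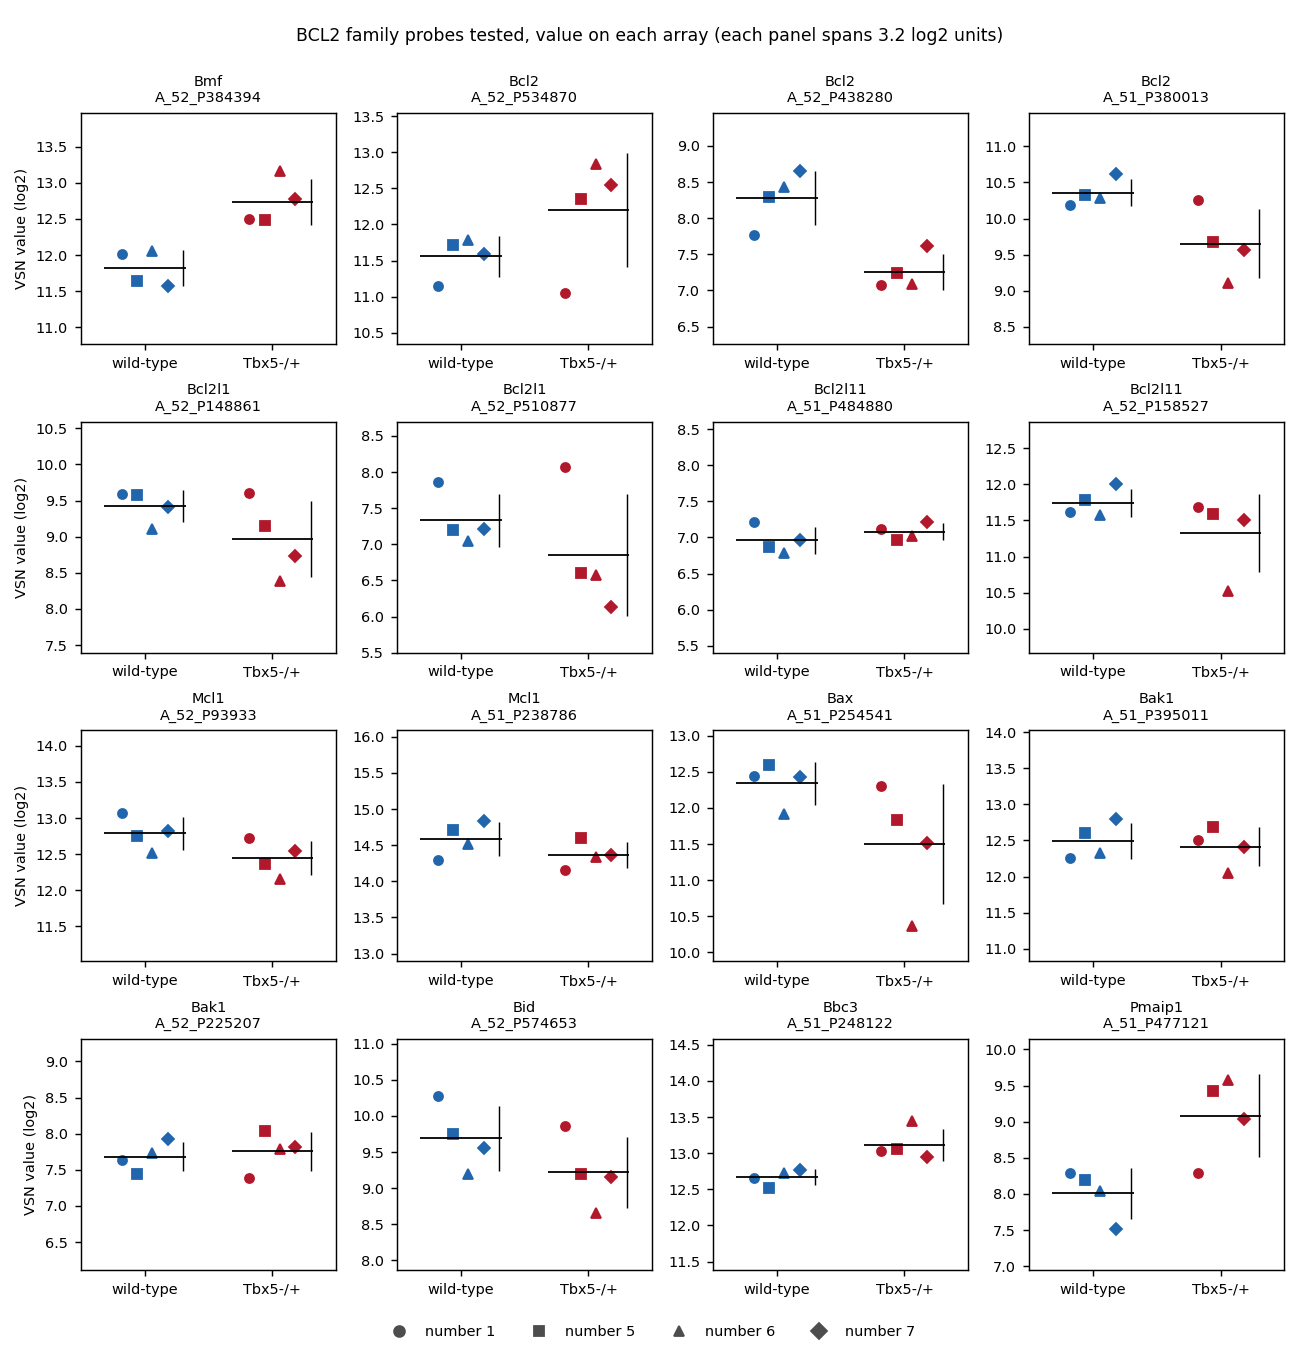
VSN value (log2) of each of the 16 tested probes on the 8 arrays, 1 panel per probe and each panel 3.2 log2 units high. Symbols give the embryo number, horizontal lines the mean and vertical lines 1 SD on either side of it. In the Pmaip1 panel Tbx5-/+ 1 sits at 8.29 with the wild-type arrays, and in the Bax panel Tbx5-/+ 6 sits at 10.36, below all others.

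Counted over the 15 tested probes of the 9 genes other than Bmf, 0 passed an adjusted p of 0.05 (limma), as did 0% of all 20028 probes. Taken at an unadjusted p under 0.05, 2 lower probes (both of Bcl2) and 2 higher ones (Bbc3 and Pmaip1) were found, where the shares of all probes were 18.5% and 3.36%. After centring the arrays 1 was lower and 4 were higher, where the shares of all probes were 6.64% and 16.2%. The groups did not overlap for 1 probe below and 1 above, against 9.01% and 0.744% of all probes, and after centring for 0 below and 2 above, against 2.45% and 8.95%. The median difference of the 15 probes was -0.34, beside -0.19 over all probes, whose 5th and 95th percentiles were -1.18 and 0.57. By role, 6 of the 7 anti-apoptotic probes lay below the median of all probes and the 3′ probe of Bcl2 lay above it. Of the 5 BH3-only probes other than Bmf's, 3 lay above it, and of the 3 effector probes 2 did. These counts rest on few probes, several of which share a gene, and describe the list only. With the 3′ to 5′ gap as a covariate both Bcl2l1 probes, A_52_P93933 of Mcl1, A_52_P158527 of Bcl2l11, Bax and Bid moved above the median. The 3′ probe of Bcl2 moved below it.

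**Figure D3:**
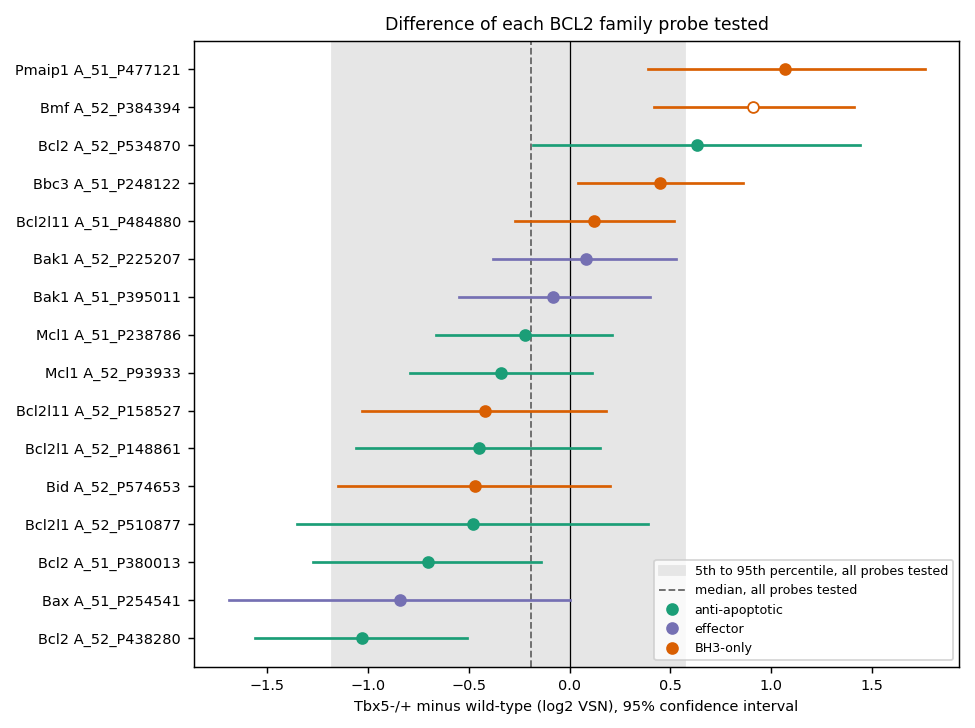
Difference between Tbx5-/+ and wild-type (log2) for each tested probe with its 95% confidence interval, coloured by role, with Bmf as an open circle. The dashed line is the median of all probes (-0.19) and the grey band their 5th to 95th percentile (-1.18 to 0.57). Pmaip1 (1.07), Bmf (0.91) and the 3′ probe of Bcl2 (0.63) lie to the right of the band, and no probe lies to its left.

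The calls changed with the way variation between arrays was modelled. With the replicate block 2 of the 15 probes passed (Bcl2 A_52_P438280 and Pmaip1), as did 11.2% of all probes. Without Tbx5-/+ 1, 5 passed (all 3 Bcl2 probes, Bcl2l1 A_52_P510877 and Pmaip1), against 19.1% of all probes. This Bcl2l1 probe passed the filter on dim probes through the wild-type group alone, which favours a lower call, there and with array weights. Without wild-type 1 Bcl2 A_52_P438280 passed, against 1.05%. With array weights, which gave Tbx5-/+ 1 a weight of 0.17 and wild-type 7 a weight of 5.42, 9 passed, against 50% of all probes. The SAM statistic of the study's methods, with its stricter filter but without the study's 2-fold cut, kept 8 of the 15 probes. It called 4 of those 8 (both more 5′ Bcl2 probes, Bax and Pmaip1), against 37.5% of all probes it kept. Of these calls, A_51_P380013 of Bcl2 (1.63-fold) and Bax (1.79-fold) lie below 2-fold. The unscaled signals gave 4, all lower (Bcl2 and Mcl1, 2 probes each), against 43.1%. Pmaip1 was among the calls with the replicate block, without Tbx5-/+ 1, with array weights and with SAM. Without wild-type 1 its adjusted p was 0.142.

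The embryo numbers differed in how far their pools lay apart. For 9 of the 15 probes number 1 had the smallest difference between its Tbx5-/+ and wild-type pool of the 4 numbers, as for 40.2% of all probes, and for 0 it had the largest (19.6% of all probes). Number 6 had the largest for 8 of the 15 (45.1% of all probes). The SD was larger in Tbx5-/+ than in wild-type for 12 of the 15 probes and for 76.2% of all probes. The direction was the same in all 4 numbers for 5 probes that were lower (A_52_P438280 of Bcl2, both Mcl1 probes, Bax and Bid), against 36.3% of all probes, and for Bbc3, which was higher, against 3.81%.

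**Figure D4:**
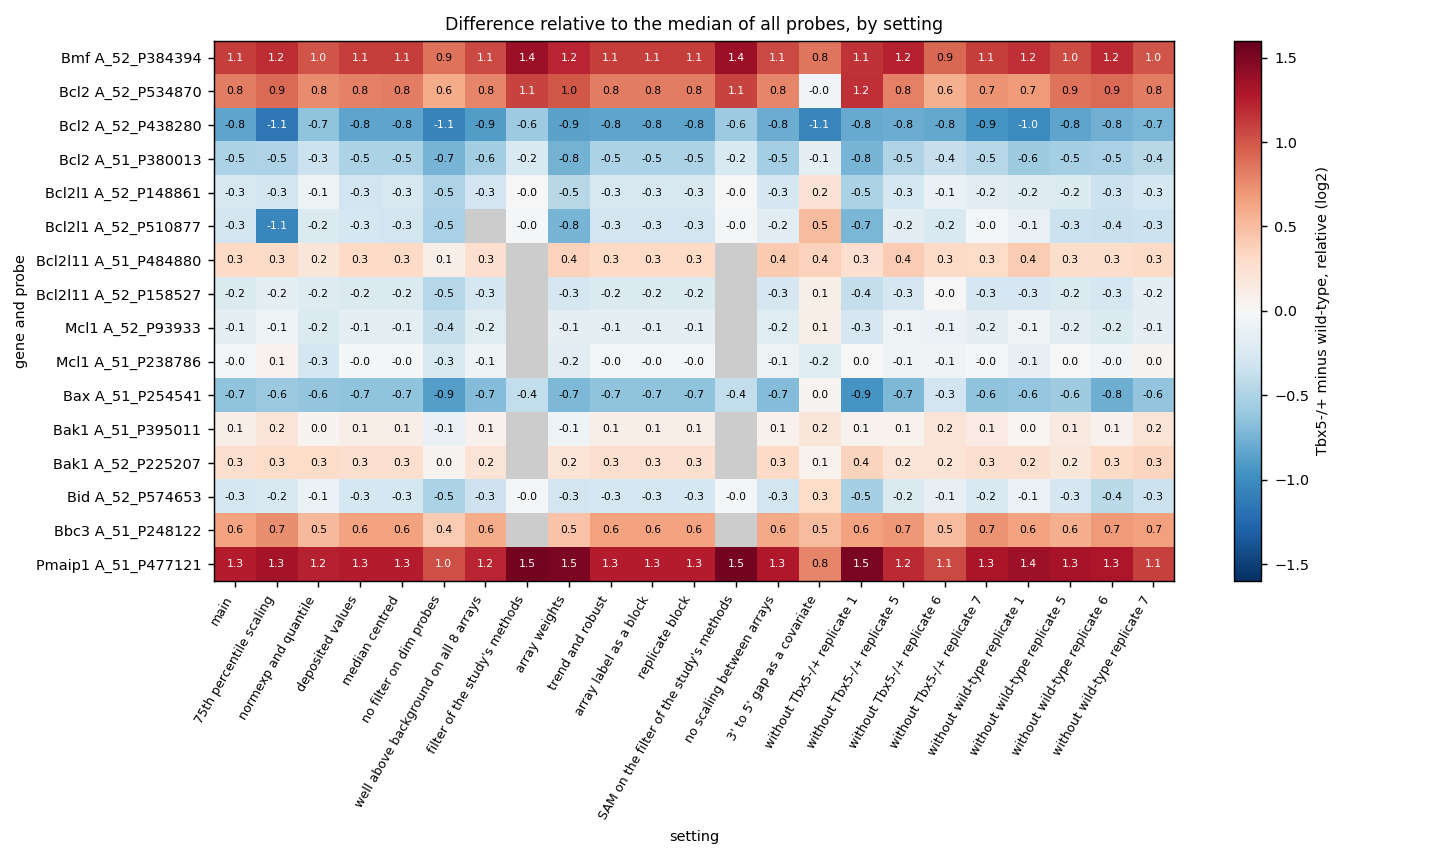
Relative difference (log2, Tbx5-/+ minus wild-type, minus the median of all probes in the same fit) of each tested probe under the main setting and 22 alternatives. Red is higher and blue lower in Tbx5-/+, and grey marks a probe that the setting's filter removed. Bmf, Bbc3 and Pmaip1 are above 0 in every column that holds them, and A_52_P438280 of Bcl2 is below 0 in every column.

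The wider apoptosis pathway was read from a list of 60 genes, of which 50 had a probe tested, each represented by its brightest one. With limma 0 of the 50 passed an adjusted p of 0.05, and 1 passed with the replicate block, against 11.2% of all probes. Those lower at an unadjusted p under 0.05 numbered 2 and those higher 0, where the shares of all probes were 18.5% and 3.36%. After centring, 1 was lower and 12 were higher, where those shares were 6.64% and 16.2%. Their median difference was -0.01, beside -0.19 for all probes. Among partners and regulators of Bmf and Bcl2l11, Mapk9 (JNK2, a kinase that can free both from their light chains) read 8.18 ± 0.44 and 8.95 ± 0.12 (SD, n = 4), a difference of -0.77 with an adjusted p of 0.156, and it fell with the replicate block (adjusted p 0.0447). The groups did not overlap for this probe of Mapk9, and its other tested probes differed by -0.38 and -0.12. Its relative Mapk8 (JNK1) differed by 0.49 (95% confidence interval -0.16 to 1.14), while its other probes ran from -1.64 to 0.78. The motor gene Myo5a differed by 0.51 (interval -0.05 to 1.08) on its brightest probe and by -0.38 on the other. Dynll2, the light chain that holds Bmf, differed by -0.25 (interval -0.64 to 0.13), with all 4 Tbx5-/+ values below wild-type, as for 9.01% of all probes, and its other probes differed by -0.14 and 0.17.

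In the p53 branch 10 of 11 genes were tested, and 1 was lower at an unadjusted p. This was Cdkn1a, the cell cycle inhibitor p21, with 7.57 ± 0.45 and 8.26 ± 0.20 (SD, n = 4), a difference of -0.70 and an adjusted p of 0.19. Ccng1, another p53 target, differed by 0.57 on its brightest and by 0.58 on its other probe (adjusted p 0.239 for the former). Trp53 itself differed by -1.06, with a 95% confidence interval of -2.24 to 0.12, and its other probe by 0.18. The former probe was well above background on 3 Tbx5-/+ arrays and on all 4 wild-type arrays. It passed the filter on dim probes through the wild-type group alone, which favours a lower value. Mdm4, a p53 inhibitor, differed by -0.38 (interval -0.84 to 0.08), and its other probes by -0.42 to 0.21. Of the branch's other tested genes, Mdm2 differed by 0.84 (-0.31 on its other probe) and Sesn2 by 0.33 (-0.09 on the other). Perp differed by 0.04, Zmat3 by -0.01, Trp53inp1 by -0.11 (-1.76 on its other probe) and Aen by -0.35. Genes that p53 is known to switch on thus stood on both sides of 0. Bbc3, Pmaip1, Ccng1 and the brightest Mdm2 probe lay above it, Cdkn1a and Bax (-0.84) below, none past the threshold in the reported fit. The side is read against 0, not against the median of all probes.

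In the 4 other branches 0 genes reached an unadjusted p under 0.05. In the rest of the BCL2 family 8 of 14 genes were tested. Bcl2l13 differed by -0.40, Bad by 0.32, Bcl2l2 by -0.26 and Bcl2l12 by 0.23, and their confidence intervals included 0. The other tested probe of Bcl2l12 had the opposite sign (-0.39). All 15 genes of the apoptosome, the caspases and the mitochondrial factors were tested, and the largest deviations from 0 relative to their error were those of Cycs (cytochrome c, 0.42), Casp8 (-0.41), Casp2 (-0.44) and Casp6 (-0.33). All 5 inhibitors of apoptosis were tested. Xiap, which blocks caspases directly, differed by -0.39 (-0.69 on its other tested probe), Birc5 by 0.29, Birc6 by 0.38 and Birc2 by 0.10. In the death receptor branch, 6 of 8 tested, the kinase Ripk1 differed by -0.44 (adjusted p 0.229), Cflar by -0.33, Fadd by -0.39 and Tnfrsf1a by 0.33. The other tested probes of Cflar (0.13) and Fadd (0.70) had the opposite sign.

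**Figure D5:**
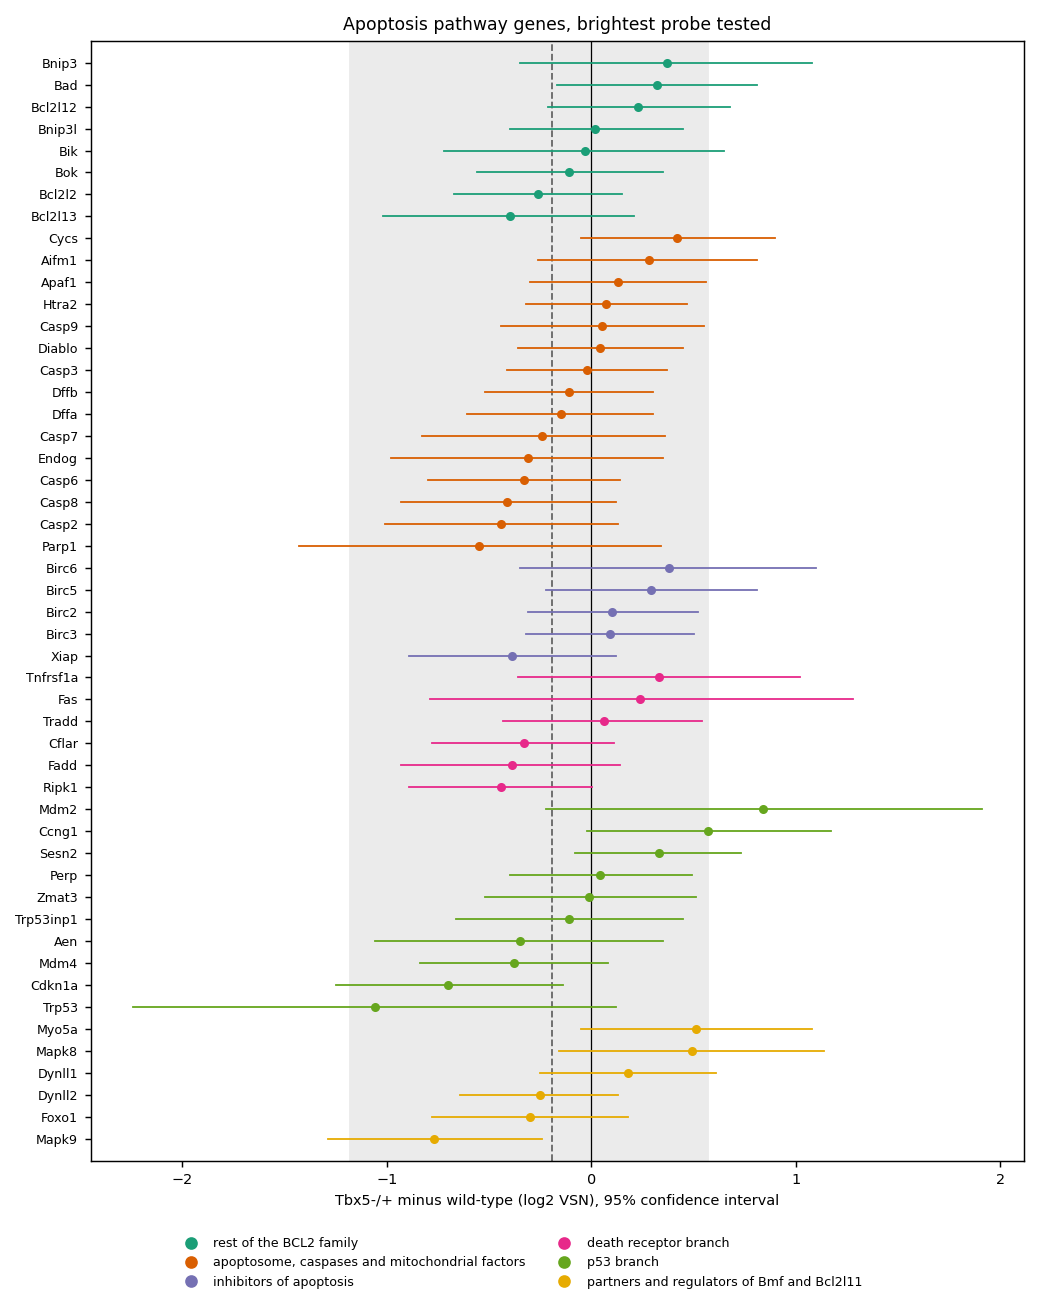
Difference between Tbx5-/+ and wild-type (log2) with its 95% confidence interval for the 50 pathway genes tested, grouped by branch. The dashed line marks the median of all probes (-0.19) and the grey band their 5th to 95th percentile. The intervals of Mapk9 (-0.77) and Cdkn1a (-0.70) are the ones that do not include 0.

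The probes most like Bmf were found by Pearson's r of the VSN values over the 8 arrays, as a description. Over 18386 probes with a current gene name r had a median of -0.38 and 5th and 95th percentiles of -0.92 and 0.81, so high values in either direction were common, and all points share the arrays' differences in brightness and quality. The highest r belonged to Rab15 (0.988), Mpv17l (0.984), Mrpl40 (0.973), D030056L22Rik (0.966) and Sppl2a (0.965), and their r of deviations from the group means was 0.84 to 0.97. The lowest belonged to Atxn2 (-0.997), Adck2, Copz2, Kat6b and Plekha5 (-0.992 each). Within the family, Bbc3 (0.89) and Pmaip1 (0.86) had the highest r with Bmf and A_51_P380013 of Bcl2 the lowest (-0.91). Their r of deviations from the group means was 0.61, 0.57 and -0.80, since the r over 8 arrays also holds the group difference for which Bmf was chosen. On the deviations the lowest in the family were A_51_P395011 of Bak1 (-0.96), A_52_P158527 of Bcl2l11 (-0.89) and Bax (-0.85).

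The sequence before the transcription starts of Bmf was examined because Tbx5 is a T-box factor and the study concerns forkhead genes. RefSeq (GRCm38.p6) gives 3 starts for Bmf, and the 250 bases before each were searched on both strands for the T-box core GGTGTG. The forkhead motif GTAAACA was searched in the same way. The T-box core was found before 2 of the 3 starts and the forkhead motif before 0. Both windows that hold the core are shown 5′ to 3′ on the minus strand, with the match in capitals.
chr2:118544588-118544837: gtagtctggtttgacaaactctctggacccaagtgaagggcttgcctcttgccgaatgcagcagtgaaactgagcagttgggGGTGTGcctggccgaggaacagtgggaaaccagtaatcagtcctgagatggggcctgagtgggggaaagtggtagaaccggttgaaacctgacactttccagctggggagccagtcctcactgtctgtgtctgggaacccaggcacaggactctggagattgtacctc
chr2:118547600-118547849: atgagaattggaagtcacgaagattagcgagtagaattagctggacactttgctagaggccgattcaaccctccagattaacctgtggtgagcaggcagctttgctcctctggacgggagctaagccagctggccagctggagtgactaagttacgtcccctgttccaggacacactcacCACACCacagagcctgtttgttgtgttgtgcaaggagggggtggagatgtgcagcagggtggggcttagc
Over all 32851 such windows in the table, 16.3% hold the T-box core and 3.17% the forkhead motif. Over the 16 starts of 9 members (Pmaip1 was not searched), 5 held the T-box core (2 of Bmf, 2 of Bbc3 and 1 of Bcl2l1) and 2 the forkhead motif (Bcl2l11 and Bbc3). Windows of 1 gene can overlap. A match of 6 or 7 letters is a description of the sequence and was not tied to binding.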

How the data were processed

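RNA of 8 pools (4 Tbx5-/+, 4 wild-type) was hybridized in 1 colour to Agilent whole mouse genome arrays. The authors deposited scanner files, which hold each spot's intensity unlogged (Agilent Feature Extraction 10.5.1.1 in the submitters' processing notes), and a table of log2 values that they had background-corrected and normalized by VSN.

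Local background was subtracted from mean signals, 1115 outlier spots were left out, repeated spots averaged and VSN programmed in R 4.3.3, with 90% of probes kept in each of 7 iterations. On each array Pearson's r with the deposited log2 values was 0.99993 or more. Probes well above background on all 4 arrays of a group (20028) were compared with limma 3.58.1 (eBayes after lmFit, without covariates, two-sided, Benjamini-Hochberg over all probes, threshold 0.05). The 8 arrays limit the precision, and p-values measure the spread between pools.

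Deviations from group means of same-numbered pools correlated at 0.44, 0.40, 0.59 and 0.14 (numbers 1, 5, 6 and 7), all above 0.1. The number was therefore fitted as a replicate block, as an alternative, and the reported fit ignores it. Tbx5-/+ 7 correlated best with wild-type 6 (0.37). Same-numbered pools also sat in consecutive positions of the same slide, and the source of their likeness was not tested. Alternatives covered scaling, filters, variance models, blocks, SAM over 70 assignments and leaving out each array. The unscaled signals and the gap covariate were added after seeing the data. The members and lists were chosen with earlier results of these data known. The text names all members and the tested genes of the p53 branch. For each other branch of the pathway list it names up to 4 genes with the smallest unadjusted p, represented by their brightest probe. Names were matched to RefSeq (GRCm38.p6) and coordinates are those of the files (mm9).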

Additional observations from a re-analysis of the deposited data

Results flagged for a closer look

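In 1 of the 32 sets of 4 arrays examined (16 tested probes in 2 groups), a single array stood far from the others. For A_52_P158527 of Bcl2l11 in Tbx5-/+, number 6 read 10.53 and the others 11.50 to 11.69, and its gap to the nearest other was 0.839 of the group's whole range, above Dixon's 95% critical value for 4 samples. Chance alone flags about 1 in 20 such sets, and the cause was not tested.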

How the results depend on the processing

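Of 337 values of single probes under alternatives, 299 kept their direction relative to the median and their side of the threshold. Of the rest, 25 passed it where they had not, and 13 changed direction. The 22 values of Bmf carry no p and count by direction only. Centring, the trend and robust fit and both blocks leave the relative difference unchanged by construction, so no direction could change there. With the 3′ to 5′ gap as a covariate the relative difference turned to -0.04 for A_52_P534870 of Bcl2, 0.23 and 0.50 for A_52_P148861 and A_52_P510877 of Bcl2l1, 0.09 for A_52_P158527 of Bcl2l11, 0.09 for A_52_P93933 of Mcl1, 0.04 for Bax and 0.29 for Bid. A_51_P238786 of Mcl1 turned to 0.05 after scaling to the 75th percentile, 0.01 without Tbx5-/+ 1, 0.0047 without wild-type 5 and 0.04 without wild-type 7 (-0.13 to 0.04 on leaving out each array), and A_51_P395011 of Bak1 turned to -0.12 without the filter on dim probes and -0.07 with array weights. The cause of these turns was not tested. The relative difference of Bmf moved by less than the spread between replicates under all 22 alternatives. Bmf was chosen from these same arrays.

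Adjusted calls among the 15 probes of the 9 genes, 0 in the reported fit, were 9 with array weights, 2 with the replicate block, 4 with SAM, 4 without scaling and 0 to 5 on leaving out 1 array. Probes lower at an unadjusted p, 2 in the reported fit, numbered 1 under the 75th percentile, quantile and centred scalings and the gap covariate. They numbered 9 with array weights, 5 with the replicate block, 10 without scaling and 1 to 6 on leaving out 1 array. Over all 20028 probes those lower, 3713 in the reported fit, numbered 1737, 1909 and 1329 under those scalings and 2735 with the gap covariate. They numbered 7498 with array weights, 5930 with the replicate block, 13327 without scaling and 2051 to 5441 on leaving out 1 array. Among the 15 probes of the 9 genes those higher were 2 in the reported fit. They numbered 4 after centring, 1 without the filter on dim probes and 1 with the stricter filter that the study applied. They numbered 0 without scaling and with the gap covariate and 1 to 3 on leaving out 1 array. Over all probes those higher were 673 in the reported fit, 3253 after centring, 1309 of 41174 without the filter and 272 of 9197 with the stricter one. They numbered 4 without scaling, 212 with the gap covariate and 171 to 2924 on leaving out 1 array. Adjusted calls among the pathway genes, 0 in the reported fit, were 1 with the study's stricter filter, 1 with the replicate block, 21 with array weights, 7 with SAM, 18 without scaling and 0 to 7 on leaving out 1 array. Over all probes the study's stricter filter called 274 with limma, array weights 10008, the replicate block 2243, SAM 3443 and the unscaled signals 8636, against 0 in the reported fit. Leaving out Tbx5-/+ 1 called 3831 probes and leaving out wild-type 1 called 211. Of the probes at an unadjusted p, 84.7% were lower under VSN, 36.1% under the 75th percentile, 50% under quantile and 29% under centred scaling. The dim probes of Bmf, Bcl2l1 and Bcl2l11 lie at the limit of detection, and no fold is given for them.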
